A study of Mus musculus with 8 samples.

Results

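Immunity-related GTPases (IRG proteins) are interferon-inducible enzymes of cell-autonomous defence, and 7 of their genes were examined in naive mouse corneas: Irgm1, Irgm2, Igtp, Iigp1, Tgtp1, Tgtp2 and Ifi47. These are 7 of the 54532 genes in the expression table and 7 of the 31314 with a read in any cornea. The 7 genes were chosen by their names with the strain contrast of these same corneas already known, so their strain differences are described here without a test and support nothing further. The samples were naive corneas of BALB/cN mice (labelled Balb/c, 4 corneas) and of C57BL/6N mice (4 corneas), from which total RNA was sequenced. The mice were male and untreated, and no age was given for the sequenced animals. Each library came from a whole piece of corneal tissue, so a level is a mean over all the cells it held. Nothing in the labels says whether corneas of a strain came from separate animals, and the errors below measure the spread between these samples.

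IRG proteins act on the vacuoles that hold intracellular parasites and bacteria. The effector members bind the vacuole membrane in their GTP-bound form and break it, while the regulatory members Irgm1, Irgm2 and Igtp (also called Irgm3) sit on the cell's own membranes and keep the effectors inactive there. Most IRG genes are switched on by interferon gamma, and many also by type I interferons, through promoter elements bound by factors that the receptors activate: the gamma-activated site (GAS) and the interferon-stimulated response element (ISRE), to which interferon regulatory factors bind.

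The promoters of these genes are shown first, because 4 of them hold both elements in the same order. RefSeq promoters of GRCm38.p6, each running from 250 bases before to 50 bases after a transcription start, were matched by symbol for 6 of the 7 members (not Iigp1). They were searched on both strands for the ISRE core GAAANNGAAA and the GAS core TTCNNNGAA, where N is any base. The GAS core reads the same on both strands. The sequences are those of the reference genome, so variants of BALB/cN and C57BL/6N were not examined. Other annotated starts were not searched: the start used for Irgm2 was 58214977, while its annotated gene begins at 58199618. Stretches before the start are printed 5′ to 3′ on the strand of the gene, with matches to either core in capitals. They lie at chr11:48871421-48871470 for Irgm1 (minus strand), chr11:58214882-58214942 for Irgm2 and chr11:58199491-58199551 for Igtp (plus strand), and chr11:48992294-48992354 for Tgtp1 and chr11:49064253-49064313 for Tgtp2 (minus strand).
Irgm1: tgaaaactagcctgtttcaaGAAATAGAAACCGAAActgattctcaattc
Irgm2: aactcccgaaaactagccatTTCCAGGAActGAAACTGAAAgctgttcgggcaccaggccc
Igtp: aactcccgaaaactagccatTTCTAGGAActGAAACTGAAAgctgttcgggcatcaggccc
Tgtp1: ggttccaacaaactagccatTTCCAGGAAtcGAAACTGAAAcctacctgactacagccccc
Tgtp2: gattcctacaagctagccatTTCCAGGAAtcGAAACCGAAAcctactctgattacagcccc

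In Irgm2, Igtp, Tgtp1 and Tgtp2 the ISRE core began 11 bases after the start of the GAS core, which left 2 bases between them. Counted from the transcription start, the GAS core began at position -75 in Irgm2, -45 in Igtp, -88 in Tgtp1 and -81 in Tgtp2. The printed stretches of Irgm2 and Igtp were identical at 59 of 61 aligned positions (96.7%), and those of Tgtp1 and Tgtp2 at 55 of 62 (88.7%). The pair of cores at this spacing occurred in 5 of the 32851 promoters of the table (0.0152%): those of these 4 members and that of Gm12185, another gene of the family. The spacing searched for was the one these 4 members hold, so their own matches were fixed beforehand. Other spacings were not counted, and promoters as alike as these are not separate finds. Separately, the ISRE core was found in 3.44% of all promoters and the GAS core in 8.30%. Irgm1 held 2 overlapping ISRE cores at positions -30 and -24, which make up its run of capitals, and no GAS core in this window. Ifi47 held neither core in these 300 bases, which says only that these letters are not there. Of the 6 other family genes with a promoter entry, Gm12250 held 2 ISRE cores on the reverse strand and a GAS core between them, Gm12185 held the spaced pair, 9930111J21Rik1 held an ISRE core after its start, and Gm5431, 9930111J21Rik2 and Irgq held neither. A match of letters is a description and does not show that a factor binds there.

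**Figure D1:**
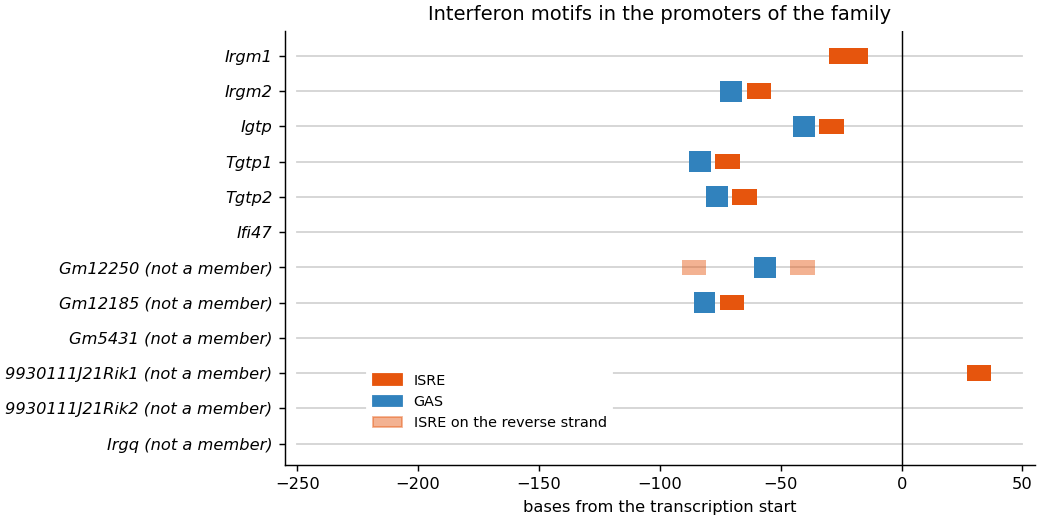
Positions of GAS cores (blue) and ISRE cores (orange, paler on the reverse strand) in bases from the transcription start, for the 6 members and 6 other IRG genes with a RefSeq promoter. In Irgm2, Igtp, Tgtp1, Tgtp2 and Gm12185 a GAS core is followed by an ISRE core 11 bases further on.

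The deposited table holds regularized log (rlog) values, a log2 scale on which the spread of a gene around its mean is compressed, most of all where few reads were counted. Because this shrinks the differences of weakly expressed genes, read counts were recovered by inverting the transformation, and levels are given as normalized reads, the recovered reads divided by the size factor of the cornea. Of the 56 recovered values of the members, 48 (85.7%) lay within 0.1 of a whole number, and the largest distance was 0.27, in Tgtp2. The recovered reads summed to 36.7 to 41.2 M per BALB/cN cornea and 29.7 to 37.0 M per C57BL/6N cornea. The 3 first-listed corneal epithelium markers, Krt12, Krt5 and Krt14, lay between 1951 and 971543 normalized reads in all 8 corneas. Lens markers summed to 8370 and 3253 normalized reads in BALB/cN replicates 1 and 4 and to 219 to 599 in the other 6 corneas. Pigment cell markers summed to 19134 and 43290 in those same corneas and to 209 to 3758 elsewhere. Stromal keratocyte markers summed to 91319 in BALB/cN replicate 2 and to 44136 and 47738 in C57BL/6N replicates 3 and 4, against 295145 to 420498 in the other 5 corneas. The median rlog difference of the members and some calls of other genes are also given without these corneas. Other values rest on all 8 corneas.

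The members lay at 3 places. Irgm1 (ENSMUSG00000046879, chr11:48861968-48871683), Tgtp1 (ENSMUSG00000078922, chr11:48985327-48994172) and Tgtp2 (ENSMUSG00000078921, chr11:49057194-49064206) are on the minus strand of GRCm38, and Ifi47 (ENSMUSG00000078920, chr11:49076587-49096974) follows them on the plus strand. Igtp (ENSMUSG00000078853, chr11:58199556-58207591) and Irgm2 (ENSMUSG00000069874, chr11:58199618-58222782) overlap on the plus strand further along the same chromosome. Iigp1 (ENSMUSG00000054072) lies on chr18:60376027-60392634 on the plus strand. All 7 are annotated as protein-coding, and values refer to all exons of a gene.

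The genes are not equally easy to count. The longest transcripts of Tgtp1 and Tgtp2 were identical at 2804 of 2811 aligned positions (99.8%), and 70.3% of the 100-base windows of Tgtp1 transcripts (the length of a read) also occurred in Tgtp2 transcripts. In the other direction 76.8% of the Tgtp2 windows occurred in Tgtp1. How reads with several alignments were counted is not given in the sources used here, so the levels of Tgtp1 and Tgtp2 and the split between them are uncertain. Irgm2 and Igtp shared 162 exon bases on the same strand (4.39% and 8.01% of their exons), Tgtp1 shared 223 with Gm12185 (6.96%), and Ifi47 shared 111 with Olfr56 on the same strand (4.49%) and 106 with Gm12188 on the opposite strand (4.29%). Irgm1 and Iigp1 shared no window of 100 bases with any other gene.

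All 7 members had a higher mean in BALB/cN corneas. In 6 of the 7, every BALB/cN rlog value lay above every C57BL/6N value, and over all 25402 genes tested (mean rlog of 0 or more) this held for 8.75%. Likewise 6 of the 7 had an adjusted p-value of 0.01 or less and a higher BALB/cN mean in limma with Benjamini-Hochberg adjustment, against 2.83% of all genes tested. Nothing is read from these counts, since the genes were selected on this contrast. All 7 passed the filter on low values, Tgtp2 only through its reads in BALB/cN. The rlog differences, BALB/cN minus C57BL/6N, ran from 0.12 for Tgtp2 to 1.96 for Igtp with a median of 1.27, and the median over all genes tested was 0.01. The ratios of mean normalized reads ran from 2.69 for Ifi47 to 16.6 for Tgtp1. In bulk tissue, fewer cells of a type and less RNA per cell cannot be told apart.

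**Figure D2:**
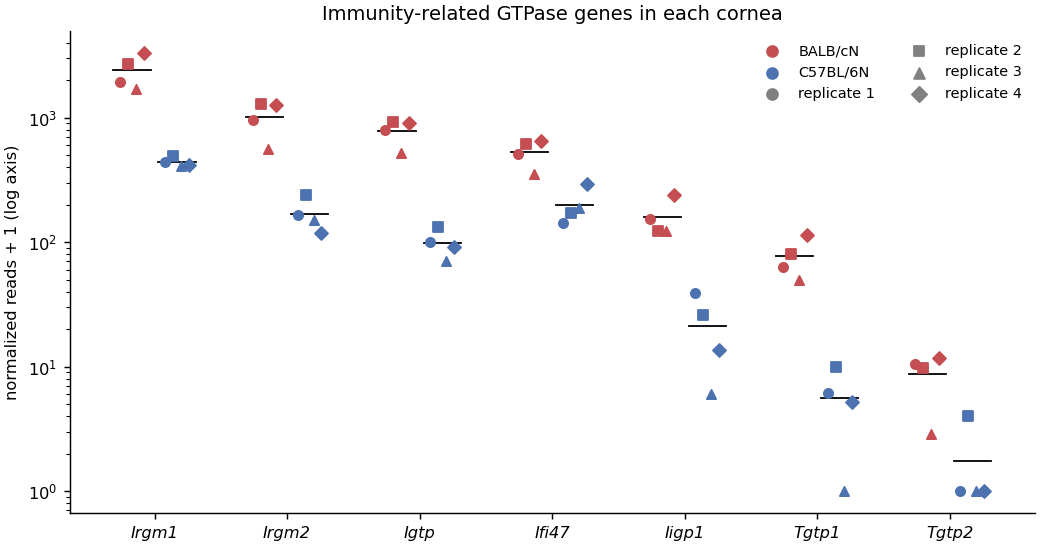
Normalized reads plus 1 (log axis) of the 7 IRG genes in each of the 8 corneas, with the mean of each strain as a black line and the replicate number as the marker shape. The BALB/cN corneas lie above the C57BL/6N corneas in every gene but Tgtp2, where 1 C57BL/6N cornea lies above BALB/cN replicate 3.

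Of the regulatory members, Irgm1, which guards the cell's own membranes and is also needed for autophagy and blood stem cell upkeep, had 1947, 2703, 1703 and 3304 normalized reads in BALB/cN replicates 1 to 4. In C57BL/6N replicates 1 to 4 it had 442, 490, 411 and 414. The strains did not overlap, and the lowest BALB/cN cornea was 3.48 times the highest C57BL/6N cornea. The means were 2414 ± 730 and 439 ± 36.5 (SD, n = 4 each), a ratio of 5.50, and the rlog difference was 1.75 ± 0.15 (standard error from limma). The spread was itself unequal: the SD was 30.3% of the mean in BALB/cN and 8.31% in C57BL/6N.

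Irgm2, a Golgi-associated regulator, had 957, 1286, 561 and 1262 normalized reads in the BALB/cN corneas. In the C57BL/6N corneas it had 163, 238, 150 and 118. BALB/cN replicate 3 was far below the other 3 BALB/cN corneas and still 2.36 times the highest C57BL/6N cornea. The means were 1017 ± 339 and 167 ± 50.8, a ratio of 6.08, and the rlog difference was 1.76 ± 0.20.

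Igtp, a regulator found at the endoplasmic reticulum, had 795, 915, 519 and 908 normalized reads in the BALB/cN corneas. In C57BL/6N it had 99.8, 131, 69.5 and 90.0. No cornea of a strain came near the other strain, the lowest BALB/cN value being 3.96 times the highest C57BL/6N value. The means were 784 ± 185 and 97.6 ± 25.6, a ratio of 8.04. Its rlog difference of 1.96 ± 0.15 was the highest of the 7 members.

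Among the effectors, Iigp1 (Irga6), the member best known for loading onto the Toxoplasma vacuole, had 152, 121, 121 and 236 normalized reads in the BALB/cN corneas. In the C57BL/6N corneas it had 37.7, 25.0, 5.06 and 12.7. The strains did not overlap, and the C57BL/6N corneas differed among themselves more than the BALB/cN corneas did relative to their mean (SD 71.2% against 34.5%). The means were 158 ± 54.3 and 20.1 ± 14.3, a ratio of 7.84, and the rlog difference was 1.27 ± 0.16.

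Ifi47 (Irgd) had 514, 612, 349 and 649 normalized reads in the BALB/cN corneas. In C57BL/6N it had 143, 170, 187 and 290. The strains came closest here of the 6 members that did not overlap, with BALB/cN replicate 3 at 1.20 times C57BL/6N replicate 4. The means were 531 ± 134 and 197 ± 64.4, a ratio of 2.69, and the rlog difference was 0.94 ± 0.16. Olfr56, whose exons overlap those of Ifi47, was measured at 42.9 ± 18.7 and 11.9 ± 9.33 normalized reads, an rlog difference of 0.43 ± 0.13 that was not called (adjusted p = 0.061, limma).

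Tgtp1 and Tgtp2 (Irgb6), a pair of effectors that are among the early arrivals at the Toxoplasma vacuole, were low. Tgtp1 had 72, 91, 52 and 117 reads, before normalization, in the BALB/cN corneas and 5, 9, 0 and 4 in the C57BL/6N corneas. The strains did not overlap. The means after normalization were 75.9 ± 28.0 and 4.58 ± 3.69, a ratio of 16.6, while the rlog difference was only 0.97 ± 0.12, which shows how far the transformation shrinks a gene with few reads. Tgtp2 had 11, 10, 2 and 11 reads in BALB/cN and 0, 3, 0 and 0 in C57BL/6N. Here the strains overlapped, C57BL/6N replicate 2 lying above BALB/cN replicate 3. The 34 and 3 reads in all gave a ratio of 9.56 with an exact 95% interval of 3.01 to 48.7, which covers counting error only, and the rlog difference was 0.12 ± 0.04.

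Per kilobase of exon, the order of the levels differed somewhat between the strains. In BALB/cN, Igtp (median 421 normalized reads per kilobase) was followed by Irgm1 (400), Irgm2 (301), Ifi47 (228), Iigp1 (23.5), Tgtp1 (22) and Tgtp2 (3.09). In C57BL/6N the order was Irgm1 (73.7), Ifi47 (72.2), Igtp (46.9), Irgm2 (42.5), Iigp1 (3.24), Tgtp1 (1.46) and Tgtp2, whose median was 0. In both strains the ranges of the 4 upper genes overlapped from each gene to the next, as did those of Iigp1 and Tgtp1. These ranges do not pair the genes within a cornea. In every BALB/cN cornea Irgm1 lay above Irgm2 and Irgm2 above Ifi47. In every C57BL/6N cornea Ifi47 lay above Igtp and Iigp1 above Tgtp1. The order of the other neighbours among these genes changed between corneas. The step from the 4 upper genes down to Iigp1 was a gap without overlap in both strains, 141 against 40.6 at its edges in BALB/cN and 31.8 against 6.47 in C57BL/6N. Tgtp1 lay above Tgtp2 without overlap in BALB/cN, and the 2 overlapped in C57BL/6N.

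In the make-up of the IRG reads, the shares of Ifi47, Igtp and Tgtp1 did not overlap between the strains. Nor did the combined share of the regulators. Irgm1, Irgm2 and Igtp together gave 83.4 to 85.7% of the normalized reads of the 7 genes in the BALB/cN corneas and 66.9 to 80.6% in the C57BL/6N corneas, and these ranges did not overlap. Irgm1 alone gave 43.9 to 51.5% and 44.6 to 49.9%, and Irgm2 gave 17 to 22.5% and 12.7 to 22.3%, so the shares of both overlapped. Igtp gave 14.0 to 17.9% in BALB/cN and 8.45 to 12.3% in C57BL/6N. Tgtp1, an effector with few reads, gave 1.39 to 1.75% and 0 to 0.844%. Ifi47 had the opposite pattern, with 10 to 11.6% in BALB/cN and 15.9 to 31.2% in C57BL/6N, where replicate 4 had the highest share. Shares are parts of the same total, so a higher share of Ifi47 lowers the combined share of the regulators. The difference in the combined share is therefore not a shift of the regulators against all effectors. That combined share was 79.2, 80.6, 76.7 and 66.9% in C57BL/6N replicates 1 to 4. Replicates 3 and 4 were low in stromal keratocyte markers, as was BALB/cN replicate 2, where the regulators gave 85.7%. In total the 7 genes took 90.5 to 182 recovered reads per M reads in BALB/cN and 21.9 to 28.8 in C57BL/6N.

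**Figure D3:**
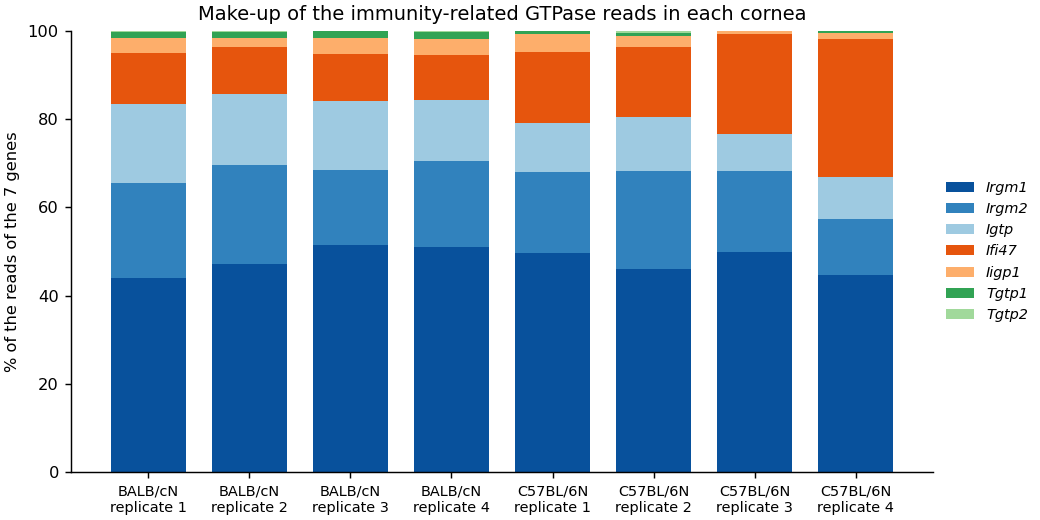
Share of each of the 7 genes (percent of their summed normalized reads) in each cornea. Ifi47 takes 10 to 11.6% in the BALB/cN corneas and 15.9 to 31.2% in the C57BL/6N corneas.

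Within BALB/cN the members varied together from cornea to cornea. Replicate 3 was the lowest BALB/cN cornea in 7 of 7 members, on average 0.32 below the strain mean on the rlog scale, and replicate 4 was above the mean in 7 of 7, on average by 0.26. The correlations of the members' deviations from the strain mean, over these 4 corneas, were above 0 in 21 of 21 pairs of genes (median r = 0.85). Within C57BL/6N they were above 0 in 15 of 21 pairs (median r = 0.68). Replicate 2 was the highest C57BL/6N cornea in 5 members, but Ifi47 was highest in replicate 4, 0.37 above its strain mean, where Irgm2 was 0.27 below its own. These are descriptions over 4 corneas that share library, depth and tissue make-up. The low level of BALB/cN replicate 3 was not particular to the members. In BALB/cN replicates 1 to 4, Ifit1 had 5483, 8316, 2938 and 6952 reads and Gbp7 2627, 2858, 1782 and 2566. Ifi27l2a, with 5201, 3743, 4091 and 6970 reads, was lowest in replicate 2 instead. The lens, pigment and stroma marker sums of BALB/cN replicate 3 were 440, 209 and 295963 normalized reads, and those of replicate 4 were 3253, 43290 and 315874. Without BALB/cN replicates 1 and 4 the median rlog difference of the members was 1.08, and without BALB/cN replicate 2 and C57BL/6N replicates 3 and 4 it was 1.13, in place of 1.27 with all corneas.

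**Figure D4:**
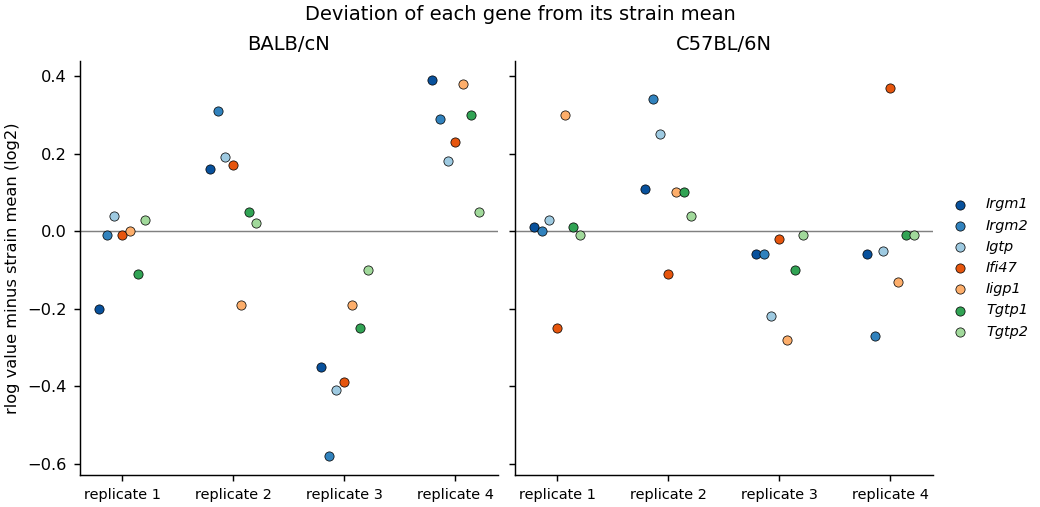
Difference of each rlog value from the mean of its strain (log2) for the 7 genes, by cornea. In BALB/cN replicate 3 all 7 genes lie below 0 and in replicate 4 all lie above it, while in C57BL/6N replicate 4 Ifi47 lies at 0.37 and the other genes lie at or below 0.

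The genes whose profile over the 8 corneas was most like the mean of the members, among 13938 protein-coding genes whose rlog mean was log2(10) or more, were Eif2ak2 (r = 0.996), Mroh7 (0.996), Nlrc5 (0.994), Stat2 (0.994) and Oas1g (0.994). Eif2ak2 encodes the double-stranded RNA sensor PKR and Nlrc5 an activator of MHC class I genes. These profiles include the strain difference. When each gene was first set relative to its strain means, the most alike were Tmem184b (r = 0.974), Oas3 (0.972), Mroh7 (0.968), Eif2s3x (0.960) and Mus81 (0.959). Of these, Oas3, an oligoadenylate synthetase, and Mroh7 were higher in BALB/cN (rlog differences 2.73 ± 0.11 and 0.58 ± 0.09, adjusted p = 6e-07 and 0.0027, limma), and the other 3 were not called. These correlations over 8 corneas are descriptions from a search over many genes.

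Other genes of the IRG family also differed between the strains. All calls here and below come from limma's own p-values, and none of the 25402 genes was called once these were recalibrated to an empirical null with an SD of 1.67, under which 1737 genes had an unadjusted p under 0.05, while limma voom on the recovered reads called 1424 genes. Of 12 such genes that are no members, 8 were tested, and 4 were higher in BALB/cN while none was lower (2.91% of all genes tested were called lower). Gm5431 had 531 to 725 normalized reads in BALB/cN and 105 to 158 in C57BL/6N, an rlog difference of 1.40 ± 0.10 (adjusted p = 1.7e-05, limma). 9930111J21Rik2 had 1032 to 1603 and 248 to 411 (1.39 ± 0.13, adjusted p = 0.00013). 9930111J21Rik1 had 143 to 241 and 22 to 36 (1.27 ± 0.11, adjusted p = 7.5e-05). These 3 genes lie in the same cluster as Irgm1, Tgtp1, Tgtp2 and Ifi47, and they showed no overlap between the strains.

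Gm12250, known as Irgb10, which takes part in releasing bacterial ligands to inflammasomes, had 86, 72, 36 and 103 reads in the BALB/cN corneas and 15, 0, 0 and 3 in the C57BL/6N corneas (0.89 ± 0.14, adjusted p = 0.0031, limma). It was no longer called without BALB/cN replicates 1 and 4 (adjusted p = 0.046), without the stroma-poor corneas (0.065), with voom on recovered reads (0.014), or when BALB/cN replicate 1 or C57BL/6N replicate 2, 3 or 4 was left out (0.011 to 0.014). Its direction held each time. Gm12185, whose exons overlap those of Tgtp1, had 54 reads in BALB/cN and 12 in C57BL/6N, all 12 in replicate 4, and was not called (0.17 ± 0.10, adjusted p = 0.37). Gm4951 (0.23 ± 0.12), F830016B08Rik (0.28 ± 0.13) and Irgq (-0.21 ± 0.07), a family member without a known role in parasite defence, were not called either. The median of the 8 differences was 0.59, against 0.01 over all genes tested.

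The guanylate-binding proteins (GBPs), larger interferon-inducible GTPases that act with IRG proteins on vacuoles, were all tested. Of the 11, 7 were higher in BALB/cN and none was lower, with a median rlog difference of 0.77. The largest increases were those of Gbp2b, with 1461 ± 252 against 6.63 ± 12.6 normalized reads (4.28 ± 0.16, adjusted p = 3.2e-07, limma), Gbp9 with 953 ± 115 against 38.3 ± 13.1 (2.93 ± 0.11, adjusted p = 3.1e-07) and Gbp3 with 928 ± 147 against 76.6 ± 16.9 (2.36 ± 0.11, adjusted p = 1.5e-06). Gbp2, Gbp4, Gbp7 and Gbp8 were also called, and Gbp5, Gbp6, Gbp10 and Gbp11 were not. Without BALB/cN replicates 1 and 4, Gbp2b, Gbp3, Gbp7 and Gbp9 were called and Gbp2, Gbp4 and Gbp8 were not. The count was also 4 when BALB/cN replicate 1, 2 or 4 or C57BL/6N replicate 2 alone was left out, and after median centring.

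The interferons themselves were not measurable in these tissues. None of the 11 ligand genes passed the filter, and Ifng, Ifnb1, Ifna1, Ifna2, Ifna4, Ifna5, Ifnl2 and Ifnl3 had no read in any of the 8 corneas, which allows up to 3 reads per cornea of 29.7 to 41.2 M. Ifnk, Ifne and Ifnz had means under 1 normalized read in either strain. Whether a ligand differed was not detectable at this depth.

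Receptors and kinases of the pathway were expressed in both strains and were not called. Among the receptors the rlog differences were -0.20 ± 0.05 for Ifngr1, -0.15 ± 0.08 for Ifngr2, -0.12 ± 0.06 for Ifnar1, 0.07 ± 0.14 for Ifnar2, 0.16 ± 0.09 for Ifnlr1 and -0.12 ± 0.09 for Il10rb. Among the kinases they were -0.08 ± 0.05 for Jak1, 0.08 ± 0.08 for Jak2 and -0.19 ± 0.07 for Tyk2. Irf1, the factor through which interferon gamma reaches many of its late targets, had 7767 ± 668 normalized reads in BALB/cN and 8523 ± 1480 in C57BL/6N and was not called (-0.09 ± 0.09, adjusted p = 0.60, limma). Irf2 (0.19 ± 0.05), Irf8 (0.57 ± 0.12), Stat3 (-0.15 ± 0.05) and Socs3 (0.21 ± 0.21) were not called.

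Of the 20 receptor and signalling genes, 6 were called higher and none lower. Among them were Usp18, which restrains the type I receptor (3.21 ± 0.22, adjusted p = 1.6e-05, limma), Irf7 (1.93 ± 0.09, adjusted p = 1.3e-06), Irf9 (1.59 ± 0.09, adjusted p = 4.2e-06), Stat2 (1.16 ± 0.11, adjusted p = 0.00013) and Socs1 (0.66 ± 0.12, adjusted p = 0.0064). The median difference of the 20 was 0.12. Without the stroma-poor corneas 3 of the 20 were called, and Socs1 was not called in 7 of the 8 fits that left out a single cornea.

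Genes known for induction by type I interferon and other genes known for induction by interferon gamma were counted apart, although many genes respond to both and the 2 lists were not tested against each other. Of 22 type I genes tested, 21 were higher in BALB/cN and none was lower, with a median of 2.45. The largest increases were those of Rsad2, which blocks viral replication, with 3160 ± 1690 against 43.5 ± 45.5 normalized reads (4.23 ± 0.38, adjusted p = 8.3e-05, limma), Ifi27l2a (4.09 ± 0.34, adjusted p = 5.7e-05) and Oas2 (3.85 ± 0.19, adjusted p = 1.8e-06). Of 20 other interferon gamma genes tested, 3 were higher and none was lower, with a median of 0.22. They were Nlrc5 (1.08 ± 0.12, adjusted p = 0.0003), Socs1 and Cd274, which encodes PD-L1 (0.40 ± 0.07, adjusted p = 0.0059). This list left out the IRG and GBP genes, and also Psmb9 and Tap1, which the study reported as higher in BALB/cN. It held Cxcl9, Cxcl10 and Cxcl11, which had no read in C57BL/6N and means of 5.14, 5.07 and 11.1 normalized reads in BALB/cN. Its count depends on this choice of genes. No interferon gamma gene of this list was called without BALB/cN replicates 1 and 4, and 1 was called without the stroma-poor corneas, while 16 and 17 type I genes were. The interferon gamma count was also 1 when BALB/cN replicate 2, 3 or 4 or C57BL/6N replicate 1, 3 or 4 alone was left out.

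The autophagy conjugation machinery is needed for IRG proteins to reach their target vacuoles. Its genes were listed as vacuole targeting genes, together with other autophagy genes and genes of the ubiquitin pathway. Of the 16 genes of this list, all tested, only Trim21 passed the threshold (727 ± 116 against 293 ± 36.6 normalized reads, 0.89 ± 0.10, adjusted p = 0.00039, limma), and the median was -0.05. Trim21 encodes an antibody receptor with ubiquitin ligase activity and was not called without BALB/cN replicates 1 and 4, and 2 genes of the list were called when C57BL/6N replicate 1 was left out. The other 15, from Atg3 and Atg5 to the Gabarap and LC3 genes, had differences between -0.32 (Ube2l3) and 0.16 (Sqstm1).

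**Figure D5:**
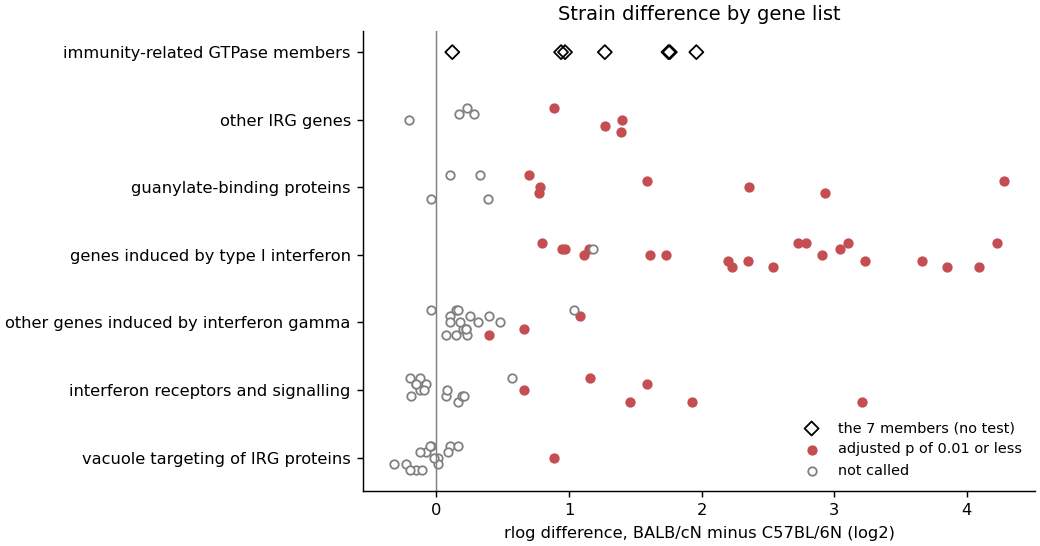
Rlog difference, BALB/cN minus C57BL/6N (log2), of the 7 members (open diamonds, no test) and of each tested gene of 6 lists, filled where limma's adjusted p was 0.01 or less. Filled points make up 21 of 22 type I interferon genes, 7 of 11 guanylate-binding proteins, 4 of 8 other IRG genes, 6 of 20 receptor and signalling genes, 3 of 20 interferon gamma genes and 1 of 16 vacuole targeting genes.

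Genes that lie beside the members but belong to neither the IRG nor the GBP family were mostly not called. Of 32 tested protein-coding genes within 500 kb of a member, 4 were called higher in BALB/cN and 1 lower, with a median rlog difference of 0.07. Over all genes tested, 2.83% were called higher and 2.91% lower, so the share called higher was larger beside the members. Beside the cluster of Irgm1, Tgtp1, Tgtp2 and Ifi47, 1 of 10 was called, Psme2b, a copy of a proteasome activator gene 39.1 kb from Tgtp1 (0.36 ± 0.07, adjusted p = 0.0083, limma). Beside Igtp and Irgm2, 3 of 13 were called: Gm12248 (1.28 ± 0.10, adjusted p = 3.5e-05), Lypd8 (0.86 ± 0.13, adjusted p = 0.0022) and Larp1 (0.29 ± 0.04, adjusted p = 0.0019). Beside Iigp1, 1 of 9 was called, Ndst1 (-0.25 ± 0.04, adjusted p = 0.0036). Without BALB/cN replicates 1 and 4, Gm12248 alone was called, and 3 were called when BALB/cN replicate 1, 2 or 4 or C57BL/6N replicate 2 or 4 alone was left out. Of the 8 fits that left out a single cornea, Psme2b was not called in 7 and Ndst1 in 5.

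Markers of the other cells a cornea can hold were measured beside these results. Of 12 macrophage markers, all tested, none was called, and their sum was 3380 to 4346 normalized reads in BALB/cN and 3277 to 3996 in C57BL/6N. Cd68 (means 1319 and 1089) and Itgam (1383 and 1654) were the largest parts of it. Other markers were uneven between corneas. In C57BL/6N replicates 1 to 4, Adgre1 had 44, 48, 1 and 3 reads and Mrc1 145, 120, 9 and 3. In the BALB/cN corneas Adgre1 had 38, 0, 37 and 34 and Mrc1 141, 17, 47 and 137. The lowest values were those of the stroma-poor corneas. Of 12 T and NK cell markers, 7 had no read in any cornea (Cd3d, Cd8a, Cd2, Ncr1, Klrb1c, Nkg7 and Prf1) and none of the 4 tested was called, with sums of 14.6 to 62.0 and 25.4 to 67.0. B cell markers summed to 46.3 to 96.9 and 13.9 to 65.2, with none of 2 tested called and Ms4a1 at 0, and dendritic cell markers to 37.6 to 94 and 16.9 to 104, with none of 3 called and Xcr1 at 0. Of 3 tested neutrophil markers S100a9 was lower in BALB/cN (1.75 to 20.3 normalized reads against 114 to 157, rlog difference -1.54 ± 0.12, adjusted p = 4e-05, limma), and Ly6g, Cxcr2 and Mpo were at 0. S100a9 is also made by epithelia. No blood endothelium (5 tested), lymphatic endothelium (4), corneal epithelium (6), keratocyte (7), lens (7) or pigment cell marker (6) was called. The lymphatic endothelium sums still did not overlap, at 4047 to 4514 normalized reads in BALB/cN and 2256.5 to 3696 in C57BL/6N. Pdpn was the largest part of them (rlog difference 0.41 ± 0.11, adjusted p = 0.047, limma). The part of lens, pigment and stromal tissue in the strain differences was not tested beyond the values without those corneas.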

How the data were processed

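Strand-specific libraries of total RNA from 8 corneas, 4 of each strain, were read from both ends over 100 bases. Per the labels and the study's methods, the authors aligned trimmed reads with TopHat2 2.1.1 to GRCm38 pseudo-genomes carrying each strain's variants, converted positions back with Lapels, counted reads on the union of exons with HTSeq 0.7.1 and deposited the log2-scale rlog values that DESeq2 1.30 gave. All 8 columns were used. Strains were compared by limma 3.58.1 (R 4.3.3) over genes whose rlog mean was 0 or more, with a variance trend, Benjamini-Hochberg adjustment and a threshold of 0.01. Reads were recovered by inverting the rlog model, with constants fitted to genes with 1 read and then to every other non-member gene. In genes left out of the fit that had 100 to 1000 normalized reads, 94% of values lay within 0.1 of a whole number. This share fell to 69.9% in the next range above 1000 reads and to 25.4% at the highest levels. Values with a random fraction added gave 20.1% at the highest levels, so closeness to whole numbers hardly checks the recovery there. Corneas of a strain differed by more than sampling noise (chi-square per gene 10.1 to 85.9). Intervals cover counting error only, since PCR copies count as separate reads. Motifs came from RefSeq GRCm38.p6, transcripts from GENCODE (Python 3.11.15, edlib 1.3.9.post1, scipy 1.17.1). Scripts were tested on simulated data.

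Members and gene lists were chosen with earlier results of these data known. Named were all members, tested other IRG genes, ligand and signalling genes (values of 1 are not reported here), the 3 largest called changes per direction in other lists, called neighbouring genes, the 5 genes most like the members by either measure, and called or first-listed markers. Alternatives changed the variance fit, filter, normalization, threshold, unit and p-values, blocked the replicate number, or left out corneas. Leaving out BALB/cN replicates 1 and 4 together, or the 3 stroma-poor corneas, was added after seeing the data.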

Additional observations from a re-analysis of the deposited data

Results flagged for a closer look

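Among 56 genes named here, 112 groups of 4 corneas were examined for a cornea far from the other 3 of its strain (Dixon's ratio of gap to range above its 95% critical value), which chance alone gives in about 1 in 20 groups, and 6 were found. Tgtp2 had an rlog value of 1.999 in C57BL/6N replicate 2, the only C57BL/6N cornea with a Tgtp2 read, against 1.941 to 1.944 in the other 3. Gm12185 had 2.917 in C57BL/6N replicate 4 against 2.670 to 2.675 in the other 3, which had no read. F830016B08Rik had 5.010 in BALB/cN replicate 1 against 4.469 to 4.544, and this cornea also had the highest lens marker sum. Ifnar2 had 7.569 in C57BL/6N replicate 4 against 8.014 to 8.060. Ndst1 had 12.457 in BALB/cN replicate 3 against 12.390 to 12.397, and 12.623 in C57BL/6N replicate 1 against 12.673 to 12.681.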

How the results depend on the processing

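Over the alternatives the 7 members kept a higher BALB/cN mean in 91 of 91 values. Nothing is read from this count, since the members were selected on this contrast. Where the strains do not overlap, leaving out a cornea cannot turn the sign. The median rlog difference of 1.27 ranged from 1.14 to 1.37 when a single cornea was left out. It was 2.98 with voom on recovered reads and 2.79 as a log2 ratio of reads with Tgtp1 and Tgtp2 summed, since neither is shrunk as rlog values are. The 1458 genes called over the table became 958 after median centring, 554 with the replicate block, 447 without BALB/cN replicates 1 and 4, 852 without the stroma-poor corneas, 2842 at an adjusted p of 0.05 and 953 to 1163 with a single cornea left out. Under an empirical null for limma's p-values the counts were 0 for the whole table, 0 for other IRG genes, 0 for pathway genes and 0 for neighbouring genes (1737 genes at an unadjusted p under 0.05). Of 88 pathway genes 37 were called, and 24 without BALB/cN replicates 1 and 4. The 4 other IRG genes were 3 or 4 with a single cornea left out and 3 with the replicate block. The 5 neighbouring genes became 2 after median centring, 3 after quantile normalization, 1 with the replicate block, 1 without BALB/cN replicates 1 and 4, 2 without the stroma-poor corneas and 3 to 5 with a single cornea left out. The cause of these shifts was not tested. The labels do not say that replicate numbers pair the corneas. Over 25402 genes the deviations of same-numbered corneas correlated at 0.31, -0.53, -0.20 and -0.45. These values give no sign of pairing but cannot exclude shared handling. The replicate block is given only here. Genes under 10 reads, Tgtp2 among them, are limited by depth.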
